A study of Mus musculus with 4 samples.

Results

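Wnt3 and Wnt9b lie head to head on mouse chromosome 11, and the surface ectoderm of the E11.5 face held 33 ATAC-seq control peaks within 100 kb of their start sites. Of these, 7 contained at least 1 region whose accessibility was lower in EDKO ectoderm, in which Cre deletes Tfap2a and Tfap2b, 8 such AP-2-dependent regions in all, where 4.48% of all control peaks overlapped one. The members were the rows of the authors' 2 peak lists whose centre lay within 100 kb of either start site, so that 33 of 65467 control peaks and 8 of 3103 AP-2-dependent regions were taken. ATAC-seq marks open chromatin by the insertions of a transposase. There were 4 libraries of facial ectoderm from E11.5 embryos, separated from the mesenchyme and pooled over the prominences, 2 from control littermates (Tfap2a flox/+; Tfap2b flox/+, no Crect) and 2 from EDKO embryos (Crect; Tfap2a flox/flox; Tfap2b flox/flox). Both groups therefore carried floxed alleles of both genes. The controls had no Cre to recombine theirs, and also had an unfloxed copy of each gene. In Crect an intronic enhancer of Tfap2a drives Cre, which can recombine beyond the ectoderm, so in the study the transgene came from sires that had been screened with reporter lines.

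WNT3 and WNT9B are secreted lipid-modified ligands that bind Frizzled receptors with their LRP5 or LRP6 partners and stabilise β-catenin, which then acts with TCF/LEF factors on target genes. Both are made in facial ectoderm and signal to the mesenchyme underneath, and loss of either is known for clefts of the lip. AP-2α and AP-2β, the products of Tfap2a and Tfap2b, bind GC-rich palindromic DNA as dimers and act in ectoderm and neural crest.

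The control peaks came from 1 call on both control libraries together, and the AP-2-dependent regions from 1 call of the control libraries against the EDKO libraries as background. Each peak thus has a position and a strength but no value per library, no error between replicates and no count of the reads behind it. Strength is given here as the −log10 p at the summit, a score of the authors' peak caller that was compared within 1 list only. Neighbouring peaks are not replicates of a condition, so no test was made, and the 95% Wilson intervals of shares cover counting error only. A peak without a region is one where the second call passed no threshold, which does not show equal accessibility. A loss of cells of 1 type and a loss of accessibility in the same cells could not be told apart in these bulk samples. Promoters of 11 of 12 surface ectoderm genes, among them Cdh1, Epcam and Trp63, had a control peak centred within 1 kb of the start site, the exception being Grhl3. The same held for 8 of 8 mesenchyme genes, 3 of 4 neural genes, 1 of 4 endothelial genes and 0 of 5 blood genes. Most promoters were open by a related rule, since a control peak covered 61.6% of all 21853 protein-coding start sites. These marker counts therefore say little about which cells were present. An open promoter is not expression, and the part of other cell types in the results was not tested. Tfap2a and Tfap2b each had 1 AP-2-dependent region within the gene, but the lists do not say whether the floxed exons were lost. The study itself reported RNA-seq reads over the floxed exons as absent or nearly so in EDKO facial ectoderm. Its authors took this as compatible with near-complete recombination.

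Both genes have a single annotated transcript, so each has a single start site (GENCODE release M21, GRCm38, which is mm10). Wnt9b spans 103727364 to 103749821 on the minus strand in 4 exons, and Wnt3 spans 103774150 to 103817957 on the plus strand in 5 exons. The start sites are 24.3 kb apart and point away from each other, so the windows overlapped and shared 30 of the 33 control peaks and 7 of the 8 regions. Beyond the 3′ end of Wnt9b lie C130046K22Rik, a processed transcript, then Gosr2, which encodes a Golgi SNARE protein, and at the edge Rprml. Beyond the 3′ end of Wnt3 lies Nsf, which encodes an ATPase of vesicle fusion and runs towards Wnt3. In what follows, control peaks are numbered C1 to C33 and regions R1 to R8 from lower to higher coordinates, from the Rprml side through Wnt9b and Wnt3 to Nsf.

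**Figure D1:**
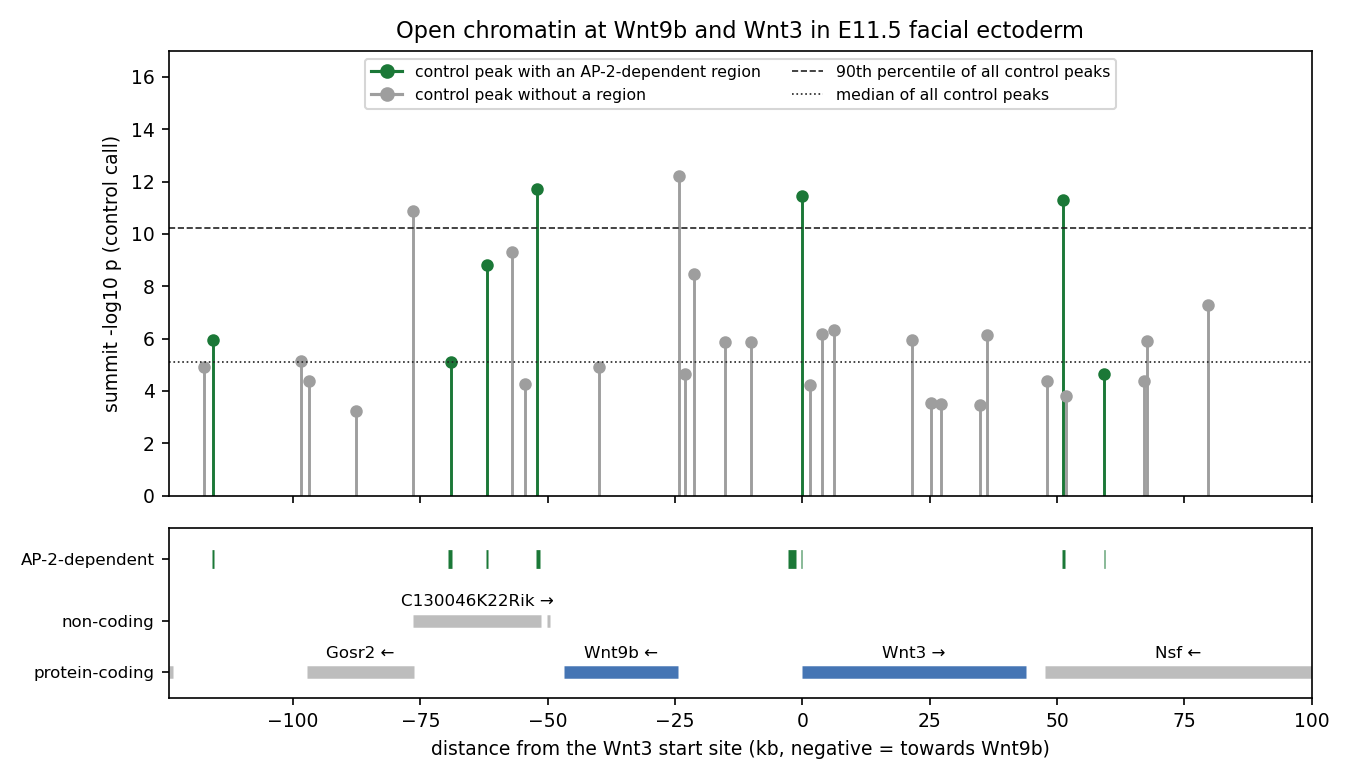
The upper panel plots the summit −log10 p of the 33 control peaks against the distance of each summit from the Wnt3 start site in kb, green for the 7 peaks with an AP-2-dependent region and grey for the other 26, with dotted and dashed lines at the median (5.10) and the 90th percentile (10.2) of all control peaks. The lower panel draws the genes, with arrows for their direction, and the 8 regions, and the green stems fall on the Wnt3 promoter and outside both Wnt gene bodies. The bodies hold 2 (Wnt9b) and 8 (Wnt3) control peaks, and 4.48% of all control peaks have a region.

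The sequences below are shown because they carry the contrast between the start sites, the strongest regions, a region without any of 3 AP-2 strings and a peak with such strings but no region. Capitals mark matches to these strings, GCCNNNGGC, CCCNNNGGG and CCTNAGG, where N is any base. Each reads the same on both strands, and neighbouring matches may overlap. The 2 promoters are RefSeq promoters of GRCm38.p6, 250 bases before to 50 after the RefSeq start, each printed along its gene, and the others are from the plus strand of the same assembly.
Wnt3 promoter (chr11:103773925-103774224, plus strand, with 222 of its bases inside R6): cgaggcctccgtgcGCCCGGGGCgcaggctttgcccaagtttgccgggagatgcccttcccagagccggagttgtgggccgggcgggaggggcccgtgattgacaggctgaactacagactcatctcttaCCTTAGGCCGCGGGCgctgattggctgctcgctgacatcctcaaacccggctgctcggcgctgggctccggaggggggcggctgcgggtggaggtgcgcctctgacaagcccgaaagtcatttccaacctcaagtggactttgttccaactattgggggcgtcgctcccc
Wnt9b promoter (chr11:103749772-103750071, minus strand, inside C13, no region): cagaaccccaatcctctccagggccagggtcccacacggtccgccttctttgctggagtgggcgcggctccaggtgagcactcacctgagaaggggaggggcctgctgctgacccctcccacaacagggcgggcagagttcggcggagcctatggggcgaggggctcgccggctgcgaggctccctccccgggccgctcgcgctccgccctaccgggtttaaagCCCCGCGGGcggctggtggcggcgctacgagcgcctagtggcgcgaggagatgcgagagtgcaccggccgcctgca
R7 around its summit (chr11:103825260-103825559, intron 19 of Nsf): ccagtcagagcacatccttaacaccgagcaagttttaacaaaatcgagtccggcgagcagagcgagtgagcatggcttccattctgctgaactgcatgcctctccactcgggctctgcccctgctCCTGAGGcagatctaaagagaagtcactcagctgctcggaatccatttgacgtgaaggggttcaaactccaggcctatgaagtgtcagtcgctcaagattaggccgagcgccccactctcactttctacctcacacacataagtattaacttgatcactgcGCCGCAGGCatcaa
R5 around its summit (chr11:103771666-103771866, upstream of Wnt3): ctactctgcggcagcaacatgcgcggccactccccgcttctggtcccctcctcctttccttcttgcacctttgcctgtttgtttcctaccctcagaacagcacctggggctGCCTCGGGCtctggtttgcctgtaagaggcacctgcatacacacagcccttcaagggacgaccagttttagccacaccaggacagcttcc
C11 around its summit (chr11:103722040-103722240, inside R4, downstream of Wnt9b): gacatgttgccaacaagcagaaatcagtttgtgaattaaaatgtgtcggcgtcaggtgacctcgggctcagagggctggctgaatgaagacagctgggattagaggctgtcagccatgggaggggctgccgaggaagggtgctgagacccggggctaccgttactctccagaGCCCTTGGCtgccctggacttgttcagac
C8 around its summit (chr11:103712076-103712276, inside R3): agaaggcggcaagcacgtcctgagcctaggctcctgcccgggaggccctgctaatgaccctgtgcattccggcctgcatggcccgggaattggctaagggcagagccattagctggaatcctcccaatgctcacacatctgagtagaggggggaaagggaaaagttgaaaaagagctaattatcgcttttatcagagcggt
C20 around its summit (chr11:103777974-103778174, intron 1 of Wnt3, no region): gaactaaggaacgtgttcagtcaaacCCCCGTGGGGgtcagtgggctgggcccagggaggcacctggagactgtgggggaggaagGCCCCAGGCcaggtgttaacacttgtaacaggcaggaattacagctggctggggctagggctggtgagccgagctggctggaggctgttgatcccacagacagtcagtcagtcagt

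The 7 control peaks with a region were 21.2% of the 33 (95% interval 10.7 to 37.8%), whereas over the whole list 4.48% of control peaks overlapped a region. It was 4.47% without unplaced scaffolds, 3.61% on chromosome 11, 5.75% among control peaks over 5 kb from every start site and 0.984% among those within 1 kb of one. Within 100 kb of Wnt9b, 7 of 32 control peaks had a region (21.9%, 11.02 to 38.8%), and within 100 kb of Wnt3, 6 of 31 (19.4%, 9.19 to 36.3%). The Wnt3 share was 6.25% (1 of 16, 1.11 to 28.3%) at a limit of 50 kb and 6.45% (1.79 to 20.7%) when an overlap had to fill at least 50% of both intervals. The regions covered 15.7% of the bases of the control peaks in the locus and 2.54% of those of all control peaks. By that stricter overlap, 3 of the 33 peaks had a region (9.09%, 3.14 to 23.6%), against 2.87% of all control peaks by the same rule, which lay just below the interval, while the 4.48% of the 1 bp rule lay within it. With peaks and regions kept from an area of 500 upwards, 3 of 22 peaks had a region (13.6%, 4.75 to 33.3%), against 2.46% of all control peaks so kept.

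By stretch of the locus, the counts were as follows. Beyond the 3′ end of Wnt9b, 4 of 11 control peaks had a region, between the start sites 1 of 5, and beyond the 3′ end of Wnt3 2 of 7. In the transcribed genes it was 0 of 2 control peaks centred in Wnt9b and 0 of 8 in Wnt3. Over all control peaks the share was 4.48%, which lay inside the intervals of both genes and of 1 of 5 (3.62 to 62.4%). It lay below those of 4 of 11 (15.2 to 64.6%) and 2 of 7 (8.22 to 64.1%). The intervals of all 5 stretches overlapped, reaching 65.8% for 0 of 2 and 32.4% for 0 of 8, so no difference between stretches was detectable with these numbers.

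The start site of Wnt3 lay inside a broad control peak, C18 (chr11:103770663-103774955), of 4293 bp, and 99.6% of all control peaks were narrower. It had the largest area under the curve of the locus, 14325, with a summit −log10 p of 11.4 placed 72 bp upstream of the start site. C18 reached from 3487 bp upstream to 805 bp downstream of the start, and accessibility was lower in EDKO in 2 separate stretches of it. R5 ran from 2744 to 1258 bp upstream of the start (1487 bp, summit −log10 p 5.66, area under the curve 1511), and R6 from 309 to 4 bp upstream (306 bp, 4.79 and 289). The 948 bp between them and all of C18 downstream of the start site were outside both regions. R6 was the most GC-rich of the 8 regions, at 68.3%, and lay in the proximal promoter that is printed above.

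At the promoter of Wnt9b the call of regions differed from that at Wnt3. Its start site lay inside C13 (chr11:103748833-103750652, 1820 bp), whose summit, 81 bp upstream of the start, had the highest −log10 p of the locus at 12.2, above 96.3% of all control peaks. No AP-2-dependent region overlapped C13, nor the adjoining peaks C14 and C15 at 1.26 and 2.8 kb upstream, with summit values of 4.64 and 8.49. Across the genome, 13456 protein-coding start sites were covered by a control peak, and that peak contained a region at 160 of them, or 1.19%. The peak at Wnt3 was among these 160 and the peak at Wnt9b was not. Whether EDKO accessibility differed more at one promoter than at the other was not tested, because the lists hold no signal for the EDKO libraries.

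On the Wnt9b side, 4 regions lay downstream of the gene, 3 of them over the non-coding transcript. R4 (chr11:103721934-103722554, 621 bp) was 27.6 kb downstream of the Wnt9b start, had the second strongest summit of the 8 regions at 7.40 with an area of 871, and sat in C11, itself at 11.7 the second strongest control peak of the locus. R3 (chr11:103711973-103712388, 416 bp) lay 37.6 kb downstream with a summit value of 5.25, and its summit was 4 bp from that of its control peak C8 (8.80). R2 (chr11:103704605-103705455, 851 bp) lay 44.8 kb downstream with a weaker summit, 3.81, and filled 79.2% of C7 (5.11). R2, R3 and R4 all fell within C130046K22Rik. R1 (chr11:103658318-103658617, 300 bp) was intergenic, 91.4 kb downstream of Wnt9b and 116 kb from Wnt3, with a value of 4.64, and filled 65.1% of C2 (5.94). The nearest protein-coding start site was that of Gosr2 for R2, R3 and R4, at 7.13, 14.3 and 24.3 kb, and that of Rprml for R1, at 8.90 kb.

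On the other side, 2 regions lay in introns of Nsf, downstream of Wnt3. R7 (chr11:103825047-103825623, 577 bp, intron 19 of Nsf) was 51.2 kb downstream of the Wnt3 start, and with a summit value of 12.3 and an area of 2623 it was the strongest of the locus by both measures, ranking 159 by summit and 144 by area among the 3072 regions on the chromosomes. Its summit fell on the same base as that of its control peak C28 (11.3). R8 (chr11:103833316-103833617, 302 bp, intron 17 of Nsf) was the weakest by both, 3.78 and 259, and filled 76.1% of the small peak C30 (4.64). For both the nearest protein-coding start site was that of Wnt3. The other 5 control peaks on this side had no region and reached 7.29, at C33 in intron 15 of Nsf.

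The regions were nested in their control peaks in unlike ways. All 8 lay wholly inside, and they filled from 7.13% (R6 in C18) to 79.2% (R2 in C7) of the peak around them. Regions were called as signal of the same control libraries above EDKO, so a place inside a control peak is likely from the calls alone. No share over all regions is given here for the nesting or the summit distances, which describe these 8 only. At R1, R3, R4 and R7 the region and the control peak had their summits within 27 bp of each other. At R6, R8 and R2 the summits were 70, 73 and 121 bp apart, and the summit of R5 was 2312 bp from that of C18. The lists hold no signal profile, so a shoulder of the Wnt3 promoter peak and a separate element merged into C18 could not be told apart at R5.

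**Figure D2:**
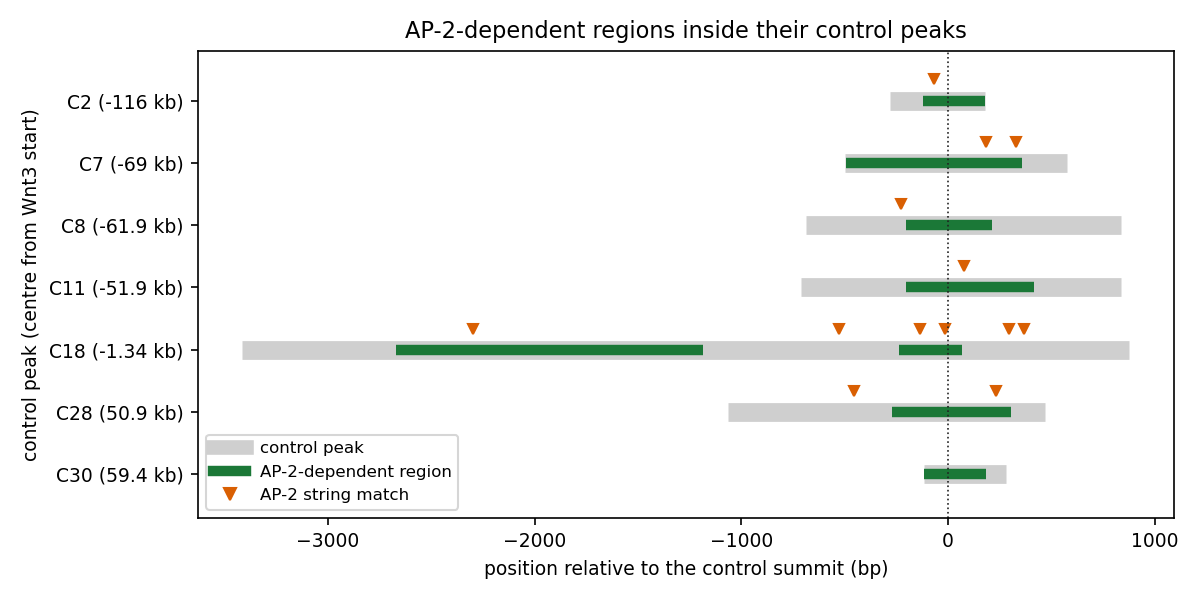
Each row is 1 of the 7 control peaks with a region, labelled by number and by the distance of its centre from the Wnt3 start site, and drawn in bp relative to its summit, with the control peak in grey, the AP-2-dependent regions in green and matches to GCCNNNGGC as orange triangles. C18 holds 2 regions, R5 away from its summit on the side towards Wnt9b and R6 at its summit, and C30 holds no match.

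Control peaks with a region tended to be strong ones in the locus, with exceptions on both sides. The regions were called from the same control libraries that gave these summit values, so the contrast is not independent of the call. The 7 peaks had summit −log10 p values of 5.94 (C2), 5.11 (C7), 8.80 (C8), 11.7 (C11), 11.4 (C18), 11.3 (C28) and 4.64 (C30), with a median of 8.80. The 26 peaks without a region ranged from 3.25 to 12.2 with a median of 5.02, so the groups overlapped. Over all control peaks on the chromosomes the medians were 6.91 with a region and 5.02 without. Above the 90th percentile of all control peaks, a summit of 10.2, stood 5 peaks of the locus, of which C11, C18 and C28 had a region and C13 and C6 did not. Among all control peaks above that line 6.62% had one, and among those at or below it 4.24%, against 4 of 28 in the locus. The medians were not stable to the definition of an overlap: when it had to fill at least 50% of both intervals, the 3 peaks left with a region had a median of 5.11, below the 5.87 of the other 30.

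**Figure D3:**
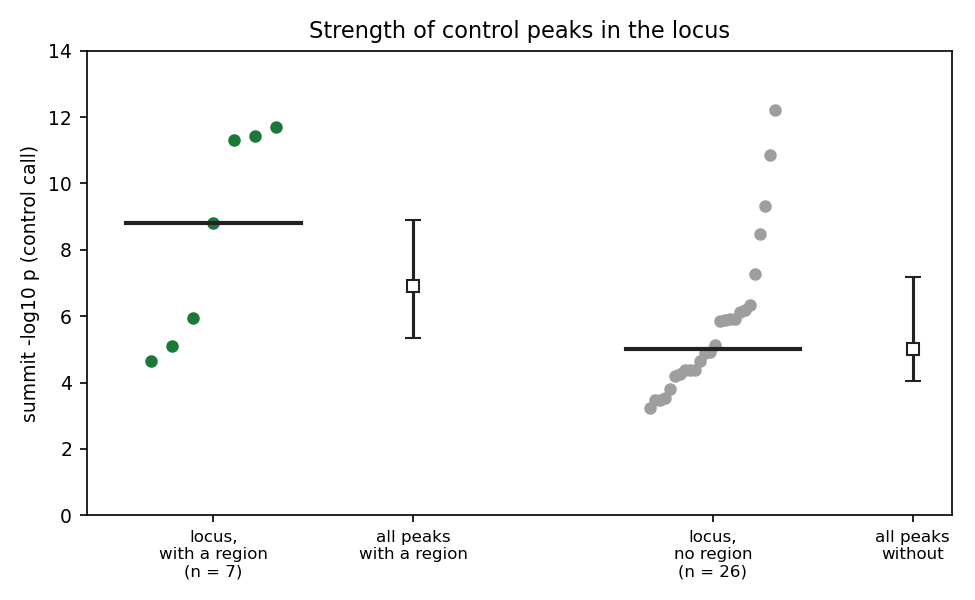
Points are the summit −log10 p (vertical axis) of the 7 control peaks of the locus with a region (green) and the 26 without (grey), spread sideways in rising order, with black bars at the medians of 8.80 and 5.02. Open squares with whiskers are the median and quartiles of all control peaks with a region (6.91, 5.33 to 8.90) and without (5.02, 4.04 to 7.17).

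The strongest 5 control peaks without a region were C13 over the Wnt9b start, C6, C9, C15 and C33. C6 (chr11:103697226-103698423), with a summit of 10.9 in the 5′ UTR of Gosr2, covered the start site of Gosr2 and the 5′ end of C130046K22Rik on the opposite strand. C9 (chr11:103716688-103717760, 9.31) lay between C8 and C11, so a strong peak without a region stood between 2 strong peaks with one. C15 (8.49) was 2.8 kb upstream of Wnt9b, and C33 (7.29) was 79.5 kb downstream of Wnt3. Inside Wnt3, the 8 control peaks in introns 1 and 2 had summits from 3.47 to 6.34. Just outside the 100 kb limit stood a control peak over Rprml (chr11:103649125-103650472), past it by 22 bp, with a summit of 6.39 and no region, while the next peak inside it was C1 at 93.1 kb (4.90, no region). In 33 of the 33 peaks the 31-base words occurred a median of 1 time in the chromosomes, and the share of words found once was lowest in C4, at 66.5%.

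AP-2 strings occurred in and near the regions, but not in all of them and not only there. The string GCCNNNGGC was present in 6 of the 8 regions, absent from R3 and R8, and in 4 of the 8 it lay within 100 bp of the region's own summit, as in 22.7% of all regions. Anywhere in the region it was in 29.7% of all regions, which were narrower, with a median width of 359 bp against 496.5 bp in the locus. Within 100 bp of the control summit it was found in 3 of the 7 peaks with a region (C2, C11 and C18) and in 4 of the 26 without (C1, C6, C20 and C24), and 14.4% of all control peaks held it in such a window. It was in 22.6% of all control peaks with a region and in 14% of those without. In the Wnt3 promoter, matches were centred 207 and 85 bp upstream of the start site, both inside R6, and R5 held 1 match 15 bp from its summit. R7 held its match 230 bp from the summit, and R1 56 bp. C20, in intron 1 of Wnt3, had a match 11 bp from its summit and no region. Counting any of the 3 strings, 4 of 7 peaks with a region and 12 of 26 without had a match within 100 bp of the summit, against 31.2% of all control peaks. CCTNAGG on its own was in 2 of 7 (C18 and C28) and in 3 of 26, against 12.9%. CCCNNNGGG was in 0 of 7 and in 6 of 26, against 10.6%, among the latter C13 at the Wnt9b promoter, although R5, far from the summit of C18, held 7 matches. Over the whole peak, 6 of 7 and 9 of 26 held GCCNNNGGC, against 39.3% and 32.1% of all control peaks with and without a region. The 7 were also wider, with a median of 1524 bp against 473 bp in the other 26 and 635 bp in all control peaks with a region.

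The promoters printed above differed in these letters. The 300 bases of the Wnt3 promoter held GCCNNNGGC at 2 places, the second overlapping a match of CCTNAGG, while those of Wnt9b held neither and had 1 match to CCCNNNGGG. Of 32851 RefSeq promoters of the same length, 16.6% held GCCNNNGGC, 12.7% CCCNNNGGG and 11% CCTNAGG. The Wnt3 promoter also held TGATTGAC, the string of PBX, a homeodomain partner with roles in facial ectoderm, which began 129 bp upstream of the start site inside R6. It was present in 0.77% of the RefSeq promoters and within 100 bp of the summit in 1.23% of all control peaks, and C18 was its only holder among the 33. A match is a description of the letters and not a site.

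The strings of other factors were searched in the same windows. The string of CTCF, which binds at insulators and domain borders, was within 100 bp of the summit in 0 of 7 peaks with a region and in 4 of 26 without, against 6.21% of all control peaks. The 4 were C3 and C4 near the 3′ end of Gosr2, on the plus and the minus strand, and C16 and C17 between the start sites, again on the plus and the minus strand, at 15.2 and 10.2 kb upstream of Wnt3. So the stretch between Wnt9b and the Wnt3 promoter peak held a CTCF string on each strand, as did C3 and C4. Strands refer to the string as searched, and the direction in which bound CTCF would point was not examined. TEAD strings (GGAATG), of the effectors of the Hippo pathway, were in 2 of 7 (C7 and C8) and in 7 of 26, against 17.9% of all control peaks. Counted over whole regions instead, R2 held 1, R3 2 and R5, the widest, 5, with no share over all regions to set beside them. The string of the p53 family, which includes the ectodermal factor p63, was in 1 of 7 (C30) and 2 of 26, against 8.68%. GRHL strings (AACNGGTT) were in 0 of 7 and 1 of 26, against 3.09%. The TCF/LEF string CTTTGAT was within 100 bp of no control summit of the locus, against 3.59% of all control peaks, although R5 and R7 each held 1 farther out. The strings were searched on both strands. The 7 peaks with a region had a median GC content of 52.5% against 54.6% in the other 26, and over all control peaks the medians were 47.4% and 52.1%.

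**Figure D4:**
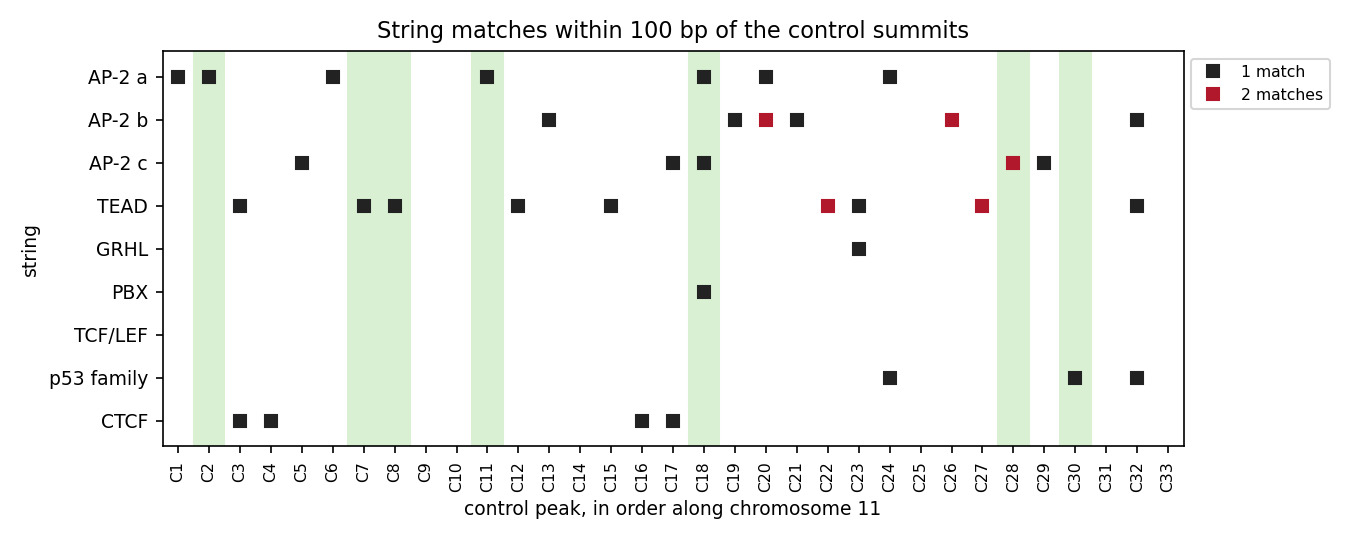
Columns are the 33 control peaks in order along chromosome 11, shaded green where the peak has an AP-2-dependent region, and rows are strings, with AP-2 a, b and c for GCCNNNGGC, CCCNNNGGG and CCTNAGG. A square marks a match within 100 bp of the control summit, and the top row shows AP-2 a in 3 of the 7 shaded and 4 of the 26 unshaded columns, against 14.4% of all control peaks.

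Among the 19 Wnt ligand genes, Wnt9b and Wnt3 had the most AP-2-dependent regions centred within 100 kb, 8 and 7, of which 7 were shared. Of the other 17, 11 had at least 1 region, and Wnt1 and Wnt10b had the most with 3 each, the same regions in neighbouring genes. Wnt2, Wnt5a, Wnt7a, Wnt7b, Wnt8a and Wnt16 had none. Over all 21853 protein-coding start sites, 20.2% had at least 1 region within 100 kb, and 50 start sites had as many as Wnt9b or more, Wnt9b included. The member genes also had more control peaks than most, 32 and 31 against a median of 8 per start site. Among the ligand genes the others had from 6 to 27. A control peak covered the start site of 17 of the 19 ligand genes, and that peak had a region at Wnt3, Wnt10a and Wnt10b, against the 1.19% of covered start sites given above. Of genes for WNT secretion and release, Wls, which carries WNT proteins to the cell surface, had 1 region among 6 control peaks, and Porcn, which adds their lipid, none among 7. Notum, which removes that lipid outside the cell, had none among 25.

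**Figure D5:**
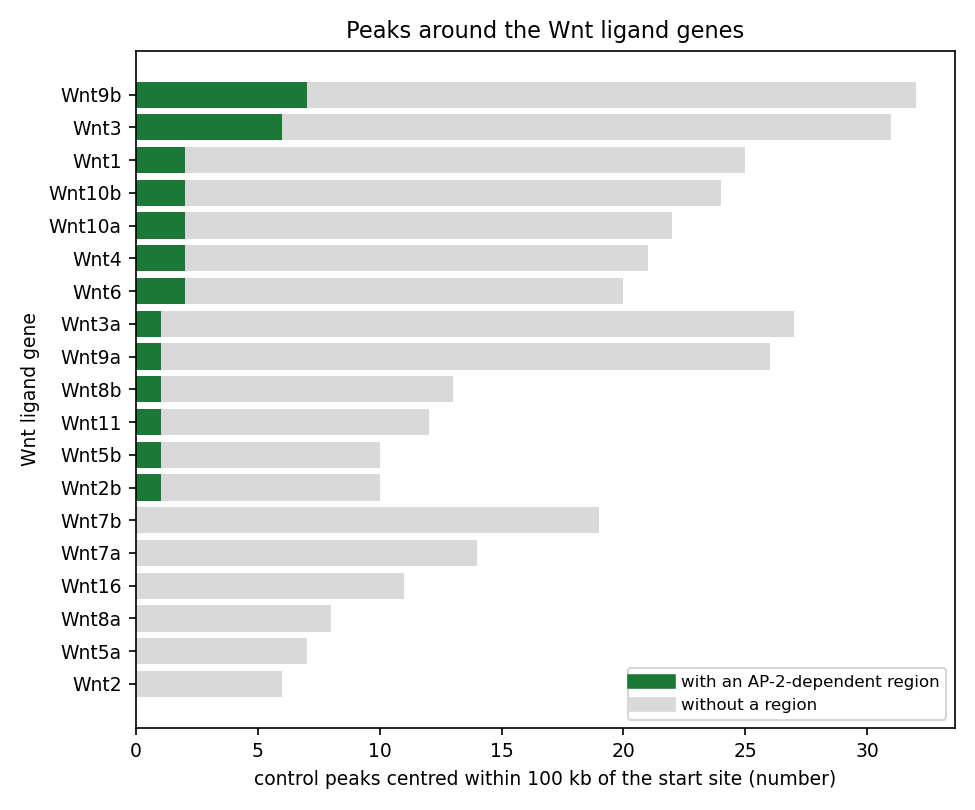
Bars give the number of control peaks centred within 100 kb of the start site of each of the 19 Wnt ligand genes, with the part in green for peaks with an AP-2-dependent region. Wnt9b (7 of 32) and Wnt3 (6 of 31) share 6 of their green peaks, and no other gene has more than 2.

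Other neighbouring pairs of Wnt genes were set beside this locus as the most like it. Within 100 kb of Wnt6 and Wnt10a, 19.6 kb apart on the same strand, 2 of 22 control peaks had a region (9.09%, 2.53 to 27.8%). For Wnt1 and Wnt10b, divergent at 11.7 kb, it was 2 of 25 (8.0%, 2.22 to 24.97%), and for Wnt3a and Wnt9a, divergent at 16.2 kb, 1 of 28 (3.57%, 0.633 to 17.7%). The interval of each pair overlapped that of Wnt3 and Wnt9b and also held the 4.48% of all control peaks. The median summit −log10 p of their control peaks was 6.39, 5.55 and 6.18, close to the 5.86 here.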

How the data were processed

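ATAC-seq was done on 4 libraries of facial surface ectoderm, 2 control and 2 EDKO, grouped by their titles, which read control or mutant. The genotypes were taken from the methods of the study. NGmerge was used by the authors for adapters and Bowtie2 for alignment to mm10, keeping at most 10 alignments of a read pair (-k 10), and peaks were called with Genrich in its ATAC-seq mode, without PCR duplicates and the mitochondrial chromosome. The columns deposited for a peak are a score (the area under the curve per base times 1000, at most 1000), that area itself, which is a score too, the −log10 p at the summit, not adjusted for the number of positions, and the offset of the summit. Libraries were combined in each call. The methods state a sequencing depth per library, but the lists hold no reads per peak, so no counting error could be given for a peak's value. Coverage tracks, reads and expression data were not analysed here.

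A region counted for a control peak from 1 bp of overlap. The start site was that of the principal transcript of each of 21853 protein-coding genes. Strings were searched on both strands of GRCm38.p6 in windows of 201 bases around summits, and 31-base words were counted on the chromosomes. Analyses used Python 3.11.15, NumPy 2.4.6, SciPy 1.17.1 and matplotlib 3.10.9, and the overlap and string searches were tested on simulated data. Every AP-2-dependent region of the locus, the control peaks over both start sites and the 5 strongest control peaks without a region were described one by one, as were a few peaks chosen after their values were seen (C1, C14, C20, the holders of named strings and the peak past the limit). The members, gene lists and strings were chosen with earlier results of these data known. For 9 results, 46 alternative values were computed, of which 3 used a setting chosen after the data had been seen.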

Additional observations from a re-analysis of the deposited data

How the results depend on the processing

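Of 46 alternative values for 9 results, 33 stayed within the interval of the reported value, or within 1.5 times of it for counts, and 13 did not. Not all of the 33 could have moved. For the median summit −log10 p of the 7 peaks with a region, the interval was their full range, 4.64 to 11.7. The median of any part of these 7 must lie inside it. A limit of 50 kb left 21 control peaks, 5 regions and a share of 6.25% for Wnt3, and one of 250 kb gave 8 regions and 44 control peaks, of which 7 had a region (15.9%). Keeping only areas from 500 upwards left 3 regions. Overlaps of at least 50% of both intervals gave shares of 9.09% for the locus, 9.38% for Wnt9b and 6.45% for Wnt3. Taking only regions whose nearest start site was that of Wnt3 or Wnt9b, a choice made after the data had been seen, left 4 regions. For the AP-2 string, CCCNNNGGG was in 0 of 7 peaks with a region. Within 250 bp of the summit, GCCNNNGGC was in 6 of 7 peaks with a region and 7 of 26 without. No share over all control peaks was computed for that wider window, so these counts cannot be read as enrichment. Over the whole peak it was in 6 of 7 and 9 of 26, against 39.3% and 32.1% of all control peaks with and without a region. The smaller numbers of peaks and regions follow from the narrower limit, the area minimum and the assignment to the nearest start site, the lower shares by overlap from a stricter rule on the same peaks, and the 0 from another string in the same windows. The summit in place of the centre changed no count. The most upstream start site could change none, because both genes have a single annotated transcript. No paired analysis was possible because the lists give no value per library, and for the same reason leaving out a library was not possible. The lists hold no reads per peak, so the counting error of weak peaks could not be given.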
